A study of Bos taurus with 4 samples.

Results

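Among the transcripts sequenced from bovine embryos after KDM5 knockdown, 39 were at least 2-fold higher than in control embryos while the first control library did not exceed the second. They were selected on measured values in the deposited FPKM table, which gives fragment numbers scaled by transcript length and library size for 14517 transcript rows. A row was taken when its mean over all 4 libraries was at least 1 FPKM, when the mean log2(FPKM + 1) of the knockdown libraries exceeded that of the control libraries by 1 or more, and when control replicate 1 was not above control replicate 2. Such a log2 difference of 1 is called 2-fold here. The ratio of mean FPKM can be lower, and was 1.85 for ZC3H14 and 1.76 for C18H19orf48. Of the 14517 rows, 8970 reached the mean of 1 FPKM, 405 of these were 2-fold higher in the knockdown, and 39 of the 405 also met the condition on the controls. Because the rule used every library of this contrast, the differences between the groups are given for the 39 transcripts as a description and without a test.

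All embryos were Bos taurus, collected 3 days after insemination at the 8- to 16-cell stage, and all had been injected as zygotes with small interfering RNAs (siRNAs). The control group (NC, n = 2 libraries) received negative control siRNAs, and the knockdown group (KDM5_KD, n = 2 libraries) received siRNAs against KDM5A, KDM5B and KDM5C. The entries for KDM5_KD replicate 2 contradict each other, since its title names a Kdm5 knockdown and its treatment entry names KDM6A, KDM6B and KDM6C siRNAs, so values are given for each knockdown library separately. Nothing in the labels says whether the 2 libraries of a group came from separate pools of embryos, so the p-values given for genes outside the 39 measure only the spread between these libraries, which may be technical.

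KDM5 enzymes are demethylases acting on lysine 4 of histone H3. The trimethylated form of this residue marks the promoters of active and poised genes, and KDM5 proteins are known chiefly as repressors that keep this mark low. At the 8- to 16-cell stage the bovine embryo passes from RNA stored in the oocyte to RNA made from its own genome, so that genes can be switched on for the first time while maternal transcripts decay.

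The siRNA target KDM5A was at 28.4 and 27.1 FPKM in the controls and at 10.5 and 10.1 FPKM in KDM5_KD (log2 difference -1.35, SE 0.142, limma adjusted p = 0.0333, n = 2 libraries per group). KDM5C was at 28.1 and 40.6 FPKM in the controls and at 15.1 and 17.8 FPKM in the knockdown (log2 difference -0.999, SE 0.208, limma adjusted p = 0.123), and KDM5B was not analysed here. KDM6A was at 7.63 and 11.3 FPKM in the controls and at 7.90 and 9.29 FPKM in the knockdown, with overlapping groups. Both knockdown libraries thus had lower KDM5A and KDM5C values than either control, including the one whose treatment entry names KDM6 siRNAs. Library sums were 287950 and 283347 FPKM in the controls and 322267 and 297389 FPKM in the knockdown. Without microRNA rows they were 287439 and 279259 FPKM in the controls and 290051 and 285122 FPKM in the knockdown. Scaling to a common sum put 8 of the 39 transcripts under the 2-fold limit. With microRNA rows left out before this scaling, 1 of 37 was under it. Judged from the spacing of the lowest values, NC replicate 1 had 0.683 times the depth of NC replicate 2, and KDM5_KD replicates 1 and 2 had 0.802 and 0.782 times that depth. Of 30 genes on a list of bovine genome activation, 18 had a row, and all 19 of their rows passed the filter. The summed levels of these rows were 2005 and 1892 FPKM in the controls and 1948 and 1754 FPKM in the knockdown. The other genes of the list, among them ZSCAN4, LEUTX and DUXA, had no row. No other stage was sequenced here, so these levels do not establish the stage. Over all 8970 rows, limma called 17 higher (0.190%) and 8 lower (0.0892%) in KDM5_KD at an adjusted p under 0.05, or 8 higher and 9 lower when each library was scaled to a common sum. Leaving out 1 library moved the number called higher to 323 without NC replicate 1, 30 without NC replicate 2, 5 without KDM5_KD replicate 1 and 3 without KDM5_KD replicate 2.

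The 39 transcripts were mostly of low abundance. Their median over all libraries was 3.82 FPKM, against 10.5 FPKM for the 8970 rows, and 22 of the 39 had a mean under 5 FPKM. Median levels were 0.764 and 1.89 FPKM in NC replicates 1 and 2 and 5.90 and 6.56 FPKM in KDM5_KD replicates 1 and 2. Of all 8970 rows, 4.52% were 2-fold higher in the knockdown, and of the 2840 rows with a mean under 5 FPKM it was 6.55%. The condition on the controls alone was common, as 44.2% of the 8970 rows had NC replicate 1 not above NC replicate 2, whereas 39 of the 405 rows that were 2-fold higher met it. Among the 27 rows that were 2-fold lower in the knockdown, 12 met it. Why fewer of the 2-fold higher rows met the condition was not tested. These counts describe how the rule divides the table, and nothing further is read from them.

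**Figure D1:**
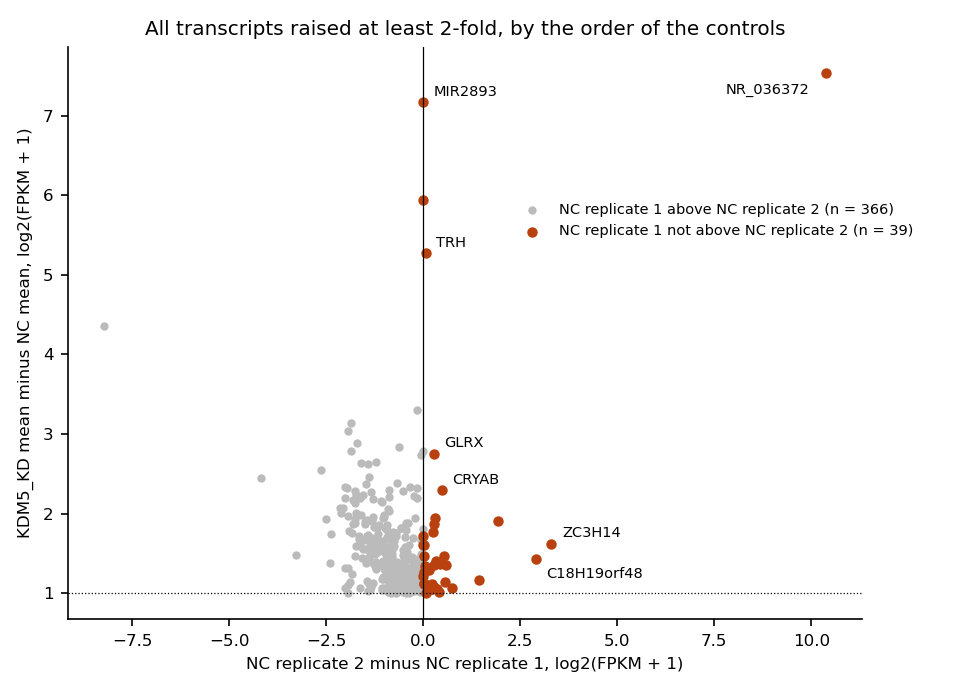
Each point is 1 of the 405 transcripts at least 2-fold higher in KDM5_KD, with the difference between the 2 NC libraries on the x axis and the difference between the KDM5_KD and NC means on the y axis, both on the log2(FPKM + 1) scale; the dotted line marks a difference of 1. The 39 described transcripts (dark) lie at or to the right of 0, most of them within 1 unit of it, while NR_036372, ZC3H14 and C18H19orf48 lie far to the right because NC replicate 1 was much lower than NC replicate 2.

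In 35 of the 39 both knockdown values lay above both control values, where 35.1% of all 8970 rows did so. All 4 pairings of a knockdown with a control library were at least 2-fold apart in 16 of the 39 (1.28% of all rows). The other 23 reached the 2-fold mean difference with 3 pairings (5 transcripts) or 2 pairings (18 transcripts) that far apart. The values that chose the transcripts also set these counts. KDM5_KD replicate 2 was above replicate 1 for 17 of the 39 and for 55.6% of all rows, so neither knockdown library was the higher one throughout.

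**Figure D2:**
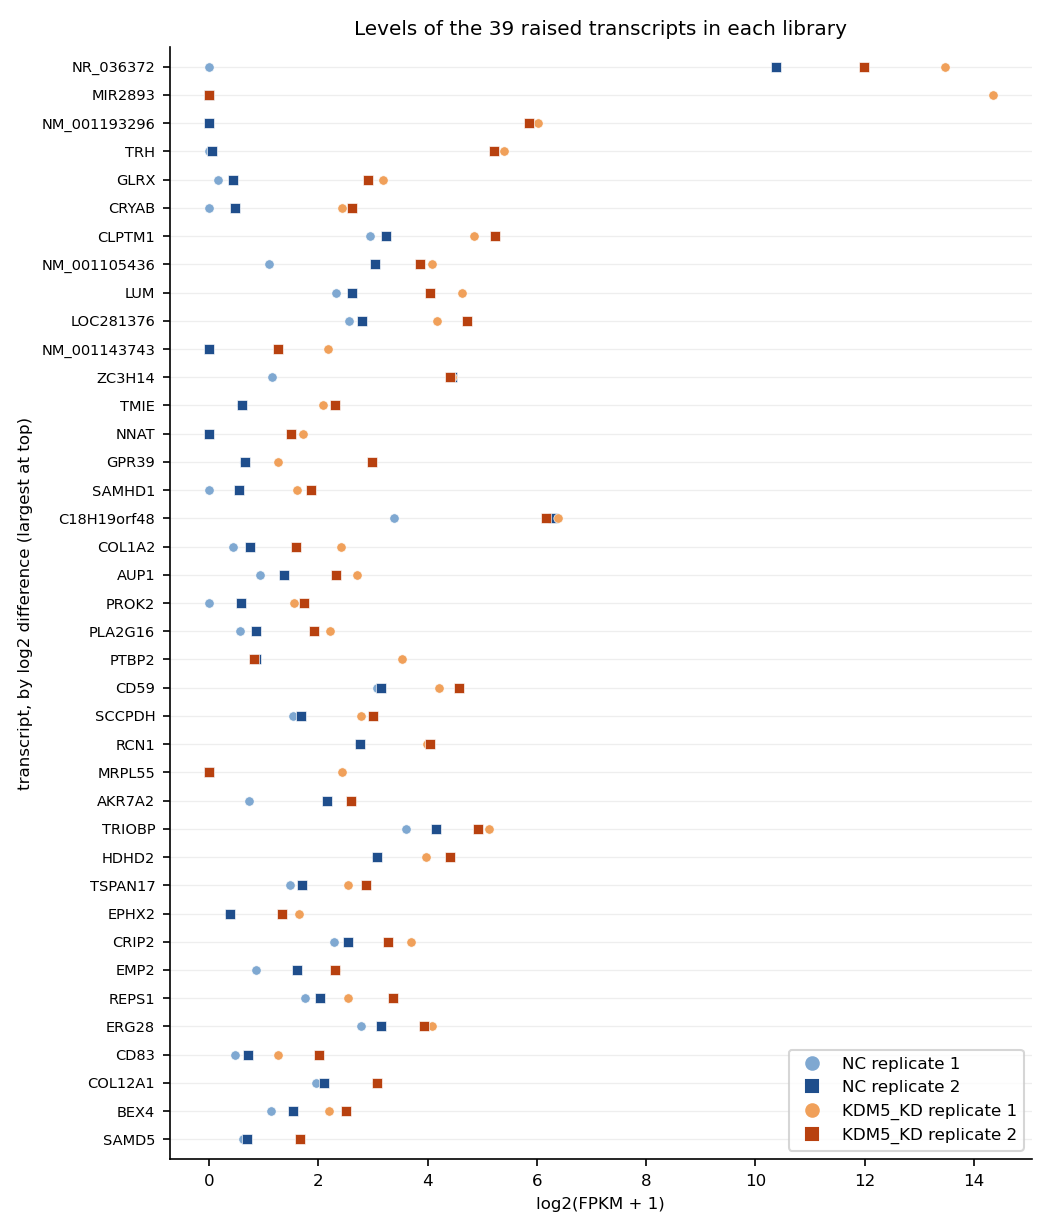
Level of each of the 39 transcripts on the log2(FPKM + 1) scale (x axis) in NC replicates 1 and 2 (light blue circles, dark blue squares) and KDM5_KD replicates 1 and 2 (orange circles, brown squares), ordered by the log2 difference; some points lie on top of each other. TRH and NM_001193296 have control values near 0 and knockdown values close together, while MIR2893, PTBP2 and MRPL55 are high in KDM5_KD replicate 1 alone.

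Secreted signals, receptors and other membrane proteins made up 8 of the 39. TRH (NM_001101221) encodes the precursor of thyrotropin-releasing hormone, a hypothalamic peptide that makes the pituitary release thyrotropin. Its level was 0 and 0.0411 FPKM in the controls and 40.96 and 36.1 FPKM in the knockdown, a log2 difference of 5.27. Both controls were thus at or near 0, and the knockdown libraries stood close to each other. PROK2, which encodes the secreted peptide prokineticin 2, was at 0 and 0.502 FPKM in the controls and at 1.94 and 2.35 FPKM in the knockdown. The zero of NC replicate 1 came from the shallowest library, and the knockdown levels were about as low as the filter allows.

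The receptor gene GPR39, a zinc-responsive member of the G protein-coupled receptors, was at 0.569 and 0.582 FPKM in the controls and at 1.39 and 6.96 FPKM in the knockdown. Most of its difference came from KDM5_KD replicate 2, and with replicate 1 as the only knockdown library the log2 difference was 0.60. CD83, a surface protein of activated immune cells, was at 0.394 and 0.636 FPKM in the controls and at 1.40 and 3.06 FPKM in the knockdown. It too was higher in KDM5_KD replicate 2 than in replicate 1. CD59, which blocks the membrane attack complex of complement, was at 7.39 and 7.83 FPKM in the controls and at 17.6 and 23.0 FPKM in the knockdown. Its control libraries were close together and its knockdown mean was 2.67 times the control mean.

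TMIE, a component of the mechanotransduction machinery of inner ear hair cells, was at 0.495 and 0.524 FPKM in the controls and at 3.27 and 3.95 FPKM in the knockdown. EMP2, an epithelial membrane protein gene, was at 0.827 and 2.06 FPKM in the controls and at 4.003 and 3.92 FPKM in the knockdown. The tetraspanin gene TSPAN17 was at 1.81 and 2.27 FPKM in the controls and at 4.85 and 6.34 FPKM in the knockdown. TMIE was past 2-fold in every pairing of libraries, while EMP2 was not when NC replicate 2 was the control (log2 difference 0.70 without NC replicate 1).

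TRH is made as a longer protein that is cut at basic residues by the prohormone convertases PCSK1 and PCSK2, trimmed by the carboxypeptidase CPE, cyclised at its first residue by QPCT and amidated by PAM. Of these, PAM had 4.55 and 1.92 FPKM in the controls and 15.6 and 9.45 FPKM in the knockdown (log2 difference 1.71, limma adjusted p = 0.127). PCSK1 stayed under 1 FPKM in all 4 libraries, as did PCSK2. CPE was at 1.27 and 0.757 FPKM in the controls and at 1.26 and 0.692 FPKM in the knockdown, and QPCT was at 1.93 and 2.95 against 1.64 and 2.66 FPKM. The precursor and the amidating enzyme were therefore high in the same libraries, whereas PCSK1, PCSK2, CPE and QPCT overlapped between groups or stayed under 1 FPKM. FURIN, a convertase of the general secretory pathway, was at 49.6 and 39.8 FPKM in the controls and at 36.6 and 39.3 FPKM in the knockdown (limma adjusted p = 0.495). Of the 18 genes on the list of prohormone processing and secretory granules, 8 rows were tested and limma called 0 (2 higher and 0 lower at an unadjusted p under 0.05). Their median log2 difference was 0.11, against 0.09 for all 8970 rows. Of all 8970 rows, 1566 had an unadjusted p under 0.05 in limma, higher and lower together, the background for such counts in each list.

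The receptor for TRH, TRHR, was listed at 0 in all 4 libraries. The list of peptide hormones and their receptors held 33 genes, of which 8 rows besides TRH were tested. In limma 0 of the 8 were called (4 higher and 1 lower at an unadjusted p under 0.05), and the median was 0.38. OXT, the oxytocin precursor, was at 7.55 and 1.82 FPKM in the controls and at 12.4 and 69.2 FPKM in the knockdown (limma adjusted p = 0.207). GRP, the gastrin-releasing peptide precursor, was at 28.2 and 19.4 FPKM in the controls and at 7.17 and 10.6 FPKM in the knockdown (limma adjusted p = 0.109). Of the 8 rows, 4 lay entirely higher in the knockdown and 1, that of GRP, entirely lower. Over all rows, 35.1% lay entirely higher and 15.6% entirely lower.

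Redox and metabolic enzymes were another 8 of the 39. GLRX (NM_001037604) encodes glutaredoxin, which uses glutathione to reduce protein disulfides. It was at 0.120 and 0.356 FPKM in the controls and at 8.14 and 6.56 FPKM in the knockdown, a log2 difference of 2.75. Every pairing of libraries was at least 2-fold apart on the log2(FPKM + 1) scale. AKR7A2, an aldo-keto reductase that detoxifies aldehydes, was at 0.653 and 3.46 FPKM in the controls and at 5.15 and 5.05 FPKM in the knockdown. NC replicate 1 set most of this difference, which was 0.45 without it. EPHX2, the soluble epoxide hydrolase, was at 0.284 and 0.311 FPKM in the controls and at 2.12 and 1.51 FPKM in the knockdown, with both controls low and alike.

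SAMHD1, which degrades deoxynucleoside triphosphates and is known for restricting retroviruses, was at 0 and 0.458 FPKM in the controls and at 2.05 and 2.67 FPKM in the knockdown. PLA2G16, a phospholipase gene, was at 0.485 and 0.806 FPKM in the controls and at 3.63 and 2.80 FPKM in the knockdown. SCCPDH, named for its likeness to saccharopine dehydrogenase, was at 1.91 and 2.21 FPKM in the controls and at 5.90 and 7.06 FPKM in the knockdown. Each of these 3 stayed at least 2-fold higher when any single library was left out. HDHD2, a hydrolase-like gene, was at 7.27 and 7.39 FPKM in the controls and at 14.6 and 20.3 FPKM in the knockdown. Its log2 difference was 0.91 with KDM5_KD replicate 1 as the only knockdown library.

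ERG28 encodes a scaffold of the endoplasmic reticulum that holds sterol synthesis enzymes together, and its level was 5.88 and 7.83 FPKM in the controls and 16.0 and 14.3 FPKM in the knockdown. In the list of 23 fatty acid and sterol synthesis genes, which does not hold ERG28, limma called 3 of 21 rows higher and 0 lower. Of these 21 rows, 18 lay entirely higher and 0 entirely lower, where 35.1% of all rows lay entirely higher and 15.6% entirely lower. The median log2 difference of the list was 0.94, against 0.09 for all rows. HMGCS1, which makes the precursor of mevalonate, was called higher, with 10.7 and 7.94 FPKM in the controls and 38.4 and 35.1 FPKM in the knockdown (log2 difference 1.88, SE 0.181, limma adjusted p = 0.0310). The groups of ERG28 and of HMGCS1 did not overlap. The log2 difference of ERG28 was 1.05, and it was 0.87 without NC replicate 1 and 0.98 without KDM5_KD replicate 1. HMGCS1, unlike ERG28, had NC replicate 1 above NC replicate 2.

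Genes for protein folding and the endoplasmic reticulum numbered 4, and all 4 remained 2-fold higher whichever library was left out. CRYAB (NM_174290), the small heat shock protein alpha-B crystallin, was at 0 and 0.385 FPKM in the controls and at 4.43 and 5.14 FPKM in the knockdown (log2 difference 2.30). CLPTM1 (NM_001046613), a multi-pass membrane protein gene, was at 6.68 and 8.48 FPKM in the controls and at 28.0 and 36.5 FPKM in the knockdown, 4.25 times the control mean. RCN1, a calcium-binding protein of the endoplasmic reticulum, was at 5.70 and 5.80 FPKM in the controls and at 14.9 and 15.6 FPKM in the knockdown. The SD of RCN1 was 0.0726 FPKM in the controls and 0.505 FPKM in the knockdown (n = 2 libraries each). These are the values that chose the row, so nothing is read from this spread. AUP1, which acts in the degradation of misfolded proteins and at lipid droplets, was at 0.909 and 1.58 FPKM in the controls and at 5.55 and 4.04 FPKM in the knockdown.

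Extracellular matrix genes numbered 3. LUM (NM_173934) encodes lumican, a proteoglycan of collagen fibrils, and was at 4.02 and 5.12 FPKM in the controls and at 23.8 and 15.6 FPKM in the knockdown. COL1A2, a chain of type I collagen, was at 0.359 and 0.694 FPKM in the controls and at 4.32 and 2.02 FPKM in the knockdown, and its log2 difference was 0.99 without KDM5_KD replicate 1. COL12A1, a fibril-associated collagen gene, was at 2.89 and 3.30 FPKM in the controls and at 7.37 and 7.45 FPKM in the knockdown. LUM and COL1A2 were higher in KDM5_KD replicate 1 than in replicate 2, while COL12A1 was nearly equal in both.

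LUM and COL1A2 are also markers of stromal cells, so the marker lists of other cell types are given beside them. The 12 genes of the blood and stromal list other than these had summed levels of 65.9 and 32.1 FPKM in the controls and 99.2 and 76.7 FPKM in the knockdown. Of these, 4 rows were tested, all 4 had higher group means in the knockdown, 3 lay entirely higher (35.1% of all rows), and limma called 0 (1 higher and 0 lower at an unadjusted p under 0.05). COL1A1, the partner chain of COL1A2 in type I collagen, was at 28.4 and 23.9 FPKM in the controls and at 47.7 and 35.8 FPKM in the knockdown. THY1, a surface marker of fibroblasts, was at 1.96 and 1.08 FPKM in the controls and at 6.39 and 2.16 FPKM in the knockdown. HBA, the row of an alpha globin gene, was at 31.5 and 5.08 FPKM in the controls and at 38.3 and 33.1 FPKM in the knockdown. These 3 genes lay entirely higher in the knockdown, with NC replicate 1 of HBA close to the knockdown libraries. HBB, another globin gene of the list, was at 0.140 and 0.190 FPKM in the controls and listed at 0 in each knockdown library. COL3A1, the chain of type III collagen, was at 2.18 and 0.261 FPKM in the controls and at 4.03 and 2.17 FPKM in the knockdown, and its groups overlapped. PTPRC and PECAM1, which define leukocytes and endothelium, were under 0.1 FPKM in every library. The stromal gene DCN was at 0.199 and 0.727 FPKM in the controls and at 0.652 and 1.95 FPKM in the knockdown.

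For cumulus and granulosa cells, the somatic cells around the oocyte, a list of 20 genes summed to 39.6 and 23.8 FPKM in NC and to 69.6 and 68.1 FPKM in KDM5_KD. Of its 13 tested rows, 11 lay entirely higher and 0 entirely lower (35.1% and 15.6% of all rows). The median log2 difference was 0.98, and limma called 0 (9 higher and 0 lower at an unadjusted p under 0.05). Over all 8970 rows, 1566 were under 0.05 unadjusted, higher and lower together. CYP11A1, which starts steroid synthesis, was at 8.41 and 3.79 FPKM in the controls and at 12.5 and 17.2 FPKM in the knockdown. VCAN, a matrix proteoglycan of expanded cumulus, was at 0.811 and 0.524 FPKM in the controls and at 3.93 and 2.71 FPKM in the knockdown. CD44, the hyaluronan receptor, was at 3.44 and 3.11 FPKM in the controls and at 9.94 and 8.26 FPKM in the knockdown. None of these 3 markers overlapped between groups. AMH and TNFAIP6 did, with log2 differences of -0.42 and -0.05. AMH was at 2.77 and 1.12 FPKM in the controls and at 1.28 and 0.957 FPKM in the knockdown. FSHR, LHCGR and CYP19A1, which also mark granulosa cells, were under 0.1 FPKM in every library. The part of other cell types in the levels of the 39 transcripts was not tested. In such libraries from whole embryos, fewer cells of a type and less RNA per cell cannot be told apart.

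Markers of the embryo's own lineages and germ cells showed smaller list medians than the cumulus and granulosa list. The median of all rows was 0.09, and 1566 of all 8970 rows had an unadjusted p under 0.05 in limma, higher and lower together. The 13 tested oocyte rows had a median of 0.42 and 0 calls in limma (4 higher and 0 lower at an unadjusted p under 0.05), with summed levels of 289 and 215 FPKM in the controls and 321 and 416 FPKM in the knockdown. All 13 had positive log2 differences. Of them, 7 lay entirely higher and 0 entirely lower, where 35.1% and 15.6% of all rows did. The median was 0.31 for 13 trophectoderm rows (0 calls, 2 higher and 1 lower unadjusted) and 0.04 for 8 inner cell mass rows (0 calls, 1 higher and 1 lower unadjusted). Of the trophectoderm rows, 5 lay entirely higher and 4 entirely lower, and of the inner cell mass rows 1 and 1. Of 11 sperm marker rows only 1 was tested, and 9 were under 0.5 FPKM in every library. The germline and meiosis list, whose genes KDM5C is known to help to keep silent in other cells, had 10 tested rows with a median of 0.20 and 0 calls in limma (2 higher and 0 lower unadjusted). Of these 10, 9 had positive log2 differences, 6 lay entirely higher and 0 entirely lower. None of the 39 was on the oocyte, trophectoderm, inner cell mass, sperm or germline list.

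Chromatin and connexin genes were compared in the same fit. The 9 tested rows of the H3K4 methylation machinery had a median of -0.03 and 0 calls in limma (0 higher and 1 lower unadjusted), and the 19 genome activation rows had a median of -0.02 and 0 calls (2 higher and 1 lower unadjusted). Of 6 connexin rows limma called 2 higher, GJA1 and GJA4, and the median was 0.57. GJA1 was at 6.53 and 5.27 FPKM in the controls and at 20.2 and 22.1 FPKM in the knockdown (limma adjusted p = 0.0333). GJA4 was at 0.569 and 0.403 FPKM in the controls and at 11.3 and 16.5 FPKM in the knockdown (limma adjusted p = 0.0137), so both were above the controls in each knockdown library.

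Genes of the cytoskeleton and endocytosis numbered 4, with log2 differences of 1.02 to 1.14. TRIOBP, an actin-bundling protein gene, was at 11.2 and 16.9 FPKM in the controls and at 33.8 and 29.3 FPKM in the knockdown. CRIP2, a LIM domain protein gene, was at 3.88 and 4.85 FPKM in the controls and at 12.0 and 8.73 FPKM in the knockdown. BEX4, which binds microtubules, was at 1.20 and 1.89 FPKM in the controls and at 3.57 and 4.70 FPKM in the knockdown. Each of the 4 was below a 2-fold difference when NC replicate 1 was left out, with TRIOBP at 0.86 and CRIP2 at 0.94. REPS1, an endocytic adaptor gene, is described with the genes that have several rows.

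In 5 of the genes the table held further transcripts, so the row that met the rule could be set beside the whole gene. C18H19orf48 had 1 transcript (NM_001046227) at 9.52 and 77.6 FPKM in the controls and 82.3 and 71.3 FPKM in the knockdown. Its other transcript (NM_001244559) was at 75.9 FPKM in NC replicate 1 and below 0.001 FPKM in the other 3 libraries. Summed over both, the gene was at 85.4, 77.6, 82.3 and 71.3 FPKM in NC replicates 1 and 2 and KDM5_KD replicates 1 and 2, a log2 difference of -0.09. NC replicate 1 was thus the one library with most of its FPKM in the other transcript, and the gene's sums overlapped between groups.

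ZC3H14, a zinc finger protein gene that binds poly(A) tails, was at 1.22 and 20.96 FPKM in the controls and at 20.8 and 20.2 FPKM in the knockdown in the row that met the rule (NM_001034406). NC replicate 1 again stood alone, and without it the log2 difference was -0.03. With both ZC3H14 rows summed it was 0.36. REPS1 was at 2.37 and 3.07 FPKM in the controls and at 4.82 and 9.28 FPKM in the knockdown in its minor transcript, beside 21.5 to 26.1 FPKM in the major one, and the gene's summed difference was 0.04. In these 2 genes the row met the 2-fold limit and the gene's sum did not.

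MRPL55, a mitochondrial ribosomal protein gene with 5 rows, met the rule in a transcript (NM_001303493) that was at 4.44 FPKM in KDM5_KD replicate 1 and below 0.001 FPKM in the other 3 libraries. Its groups count as separate only because these near-zero estimates were ordered, and the summed difference was 0.05. NNAT, neuronatin, is an imprinted gene expressed from the paternal allele, and its row (NM_178323) was at 0.00463 and 0.00685 FPKM in the controls and at 2.29 and 1.84 FPKM in the knockdown. The other NNAT row was at 1.84 and 0.858 FPKM in the controls and at 3.07 and 2.03 FPKM in the knockdown. Unlike the other 4, the gene's sum remained 2-fold higher, at 1.85 and 0.865 FPKM in the controls and 5.35 and 3.87 FPKM in the knockdown (log2 difference 1.27). NNAT overlaps BLCAP on the RefSeq assembly ARS-UCD2.0, and BLCAP was at 37.8 and 36.1 FPKM in the controls and 36.5 and 34.1 FPKM in the knockdown.

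**Figure D3:**
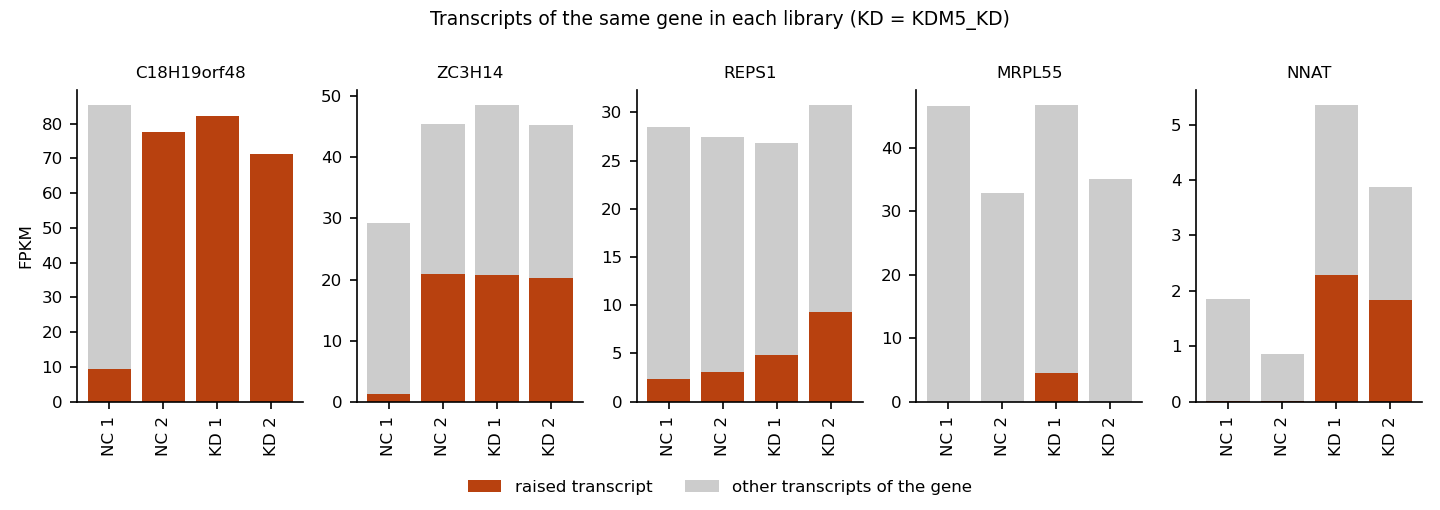
FPKM (y axis, from 0) in each library (NC 1 and 2, KD 1 and 2 for KDM5_KD replicates 1 and 2) for the 5 genes with more than 1 row, with the transcript that met the rule in brown and the gene's other transcripts stacked above it in grey. The total height is similar across libraries for C18H19orf48 and REPS1 (summed log2 differences of -0.09 and 0.04), and is higher in both knockdown libraries for NNAT.

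PTBP2, a splicing regulator of neurons and germ cells, was at 0.764 and 0.821 FPKM in the controls and at 10.6 and 0.763 FPKM in the knockdown. KDM5_KD replicate 2 was at the control level, so the difference came from KDM5_KD replicate 1 alone, and it was -0.02 without that library. SAMD5 was at 0.541 and 0.611 FPKM in the controls and at 2.16 and 2.17 FPKM in the knockdown. Its values were close within each group, and its log2 difference of 1.01 was the smallest of the 39.

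**Figure D4:**
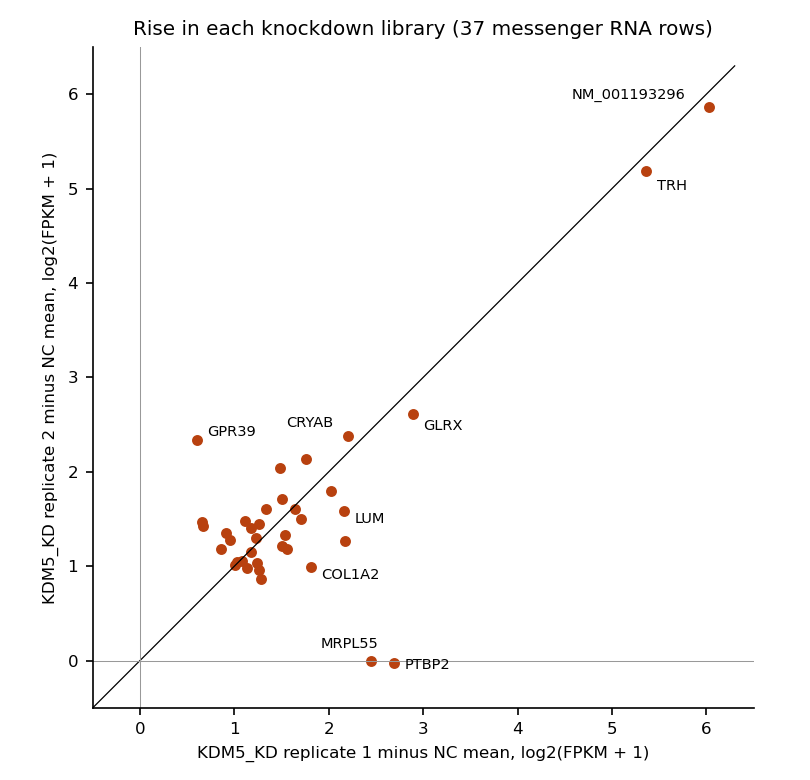
Difference from the NC mean on the log2(FPKM + 1) scale in KDM5_KD replicate 1 (x axis) and KDM5_KD replicate 2 (y axis) for the 37 messenger RNA rows, with the line of equal values. PTBP2 and MRPL55 lie near 0 in replicate 2, GPR39 is higher in replicate 2, and TRH and NM_001193296 lie far up the line.

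Of the remaining rows, 3 messenger RNAs had no symbol in the gene table. NM_001193296 was listed at 0 in both NC libraries and was at 64.4 and 57.1 FPKM in KDM5_KD. NM_001143743 was listed at 0 in both NC libraries and was at 3.52 and 1.40 FPKM in KDM5_KD. NM_001105436 was at 1.15 and 7.19 FPKM in the controls and at 16.0 and 13.6 FPKM in the knockdown, and NC replicate 2 was closer to the knockdown than to NC replicate 1 on the log2(FPKM + 1) scale. LOC281376, which the table also calls PAI2, a name used for an inhibitor of plasminogen activators, was at 4.89 and 6.01 FPKM in the controls and at 17.0 and 25.5 FPKM in the knockdown. No fold is given for those listed at 0.

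Finally, 2 rows had the accession type of non-coding RNA (NR) and the highest FPKM of the 39. FPKM is scaled by transcript length, so these values do not give the number of reads. MIR2893, a microRNA gene, was at 20797 FPKM in KDM5_KD replicate 1 and listed at 0 in the other 3 libraries. It overlaps CABIN1 on the RefSeq assembly ARS-UCD2.0, and CABIN1 had no row. NR_036372, which had no symbol in the gene table, was at 0 and 1327 FPKM in the controls and at 11321 and 4048 FPKM in the knockdown. MIR2893 therefore rested on 1 library, and the values of NR_036372 were spread widely within both groups. The libraries were made from RNA selected for poly(A) tails, which short mature microRNAs lack.

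When each library was left out in turn, 18 of the 39 remained at least 2-fold higher in every case: TRH, GLRX, CRYAB, CLPTM1, LUM, LOC281376, TMIE, NNAT, SAMHD1, CD59, AUP1, RCN1, PLA2G16, PROK2, SCCPDH, NM_001193296, NM_001143743 and NR_036372. Without NC replicate 1 the number at least 2-fold higher was 26, without KDM5_KD replicate 1 it was 32, and without KDM5_KD replicate 2 it was 33. Leaving out NC replicate 2 kept all 39, which the rule itself ensures. The 18 also stayed at least 2-fold higher under each other scaling, pseudocount and summation in which their row was present. With KDM5_KD replicate 2 as the only knockdown library, the one with contradictory entries, TRH was 5.19, GLRX 2.62 and CRYAB 2.38 log2 units above NC.

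The values next to the thresholds were close on both sides. Just inside the 2-fold limit were COL12A1, BEX4 and SAMD5 with log2 differences of 1.04, 1.02 and 1.01, and just outside it were TSPAN13, PKIA and SOD1 with 0.99, 0.99 and 0.97. On the side of the controls, GPR39, HDHD2 and RCN1 were inside with NC replicate 1 lower than NC replicate 2 by 0.01, 0.02 and 0.02 log2 units. LTC4S, LOXL4 and MLLT11 were outside with NC replicate 1 higher by 0.01, 0.02 and 0.03. Rows with control values near 0 lay closer still. MIR2893, NM_001193296 and NM_001143743 were inside with both controls listed at 0. MRPL55 was inside and LOC112445785 outside, each with both controls below 0.001 FPKM, so the order of near-zero estimates placed them. LOC112445785 was at 4.61 and 7.55 FPKM in the knockdown, a log2 difference of 2.79. The 366 rows on the other side of that condition had a median level of 5.86 FPKM and a median log2 difference of 1.32, beside 3.82 FPKM and 1.36 for the 39. Their control libraries lay further apart, with a median distance of 0.71 log2 units against 0.26, while their knockdown libraries lay 0.25 apart, against 0.29 for the 39.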

How the data were processed

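Polyadenylated RNA was sequenced from 4 bovine embryo libraries, 2 per group, grouped by title. The authors deposited 1 table of FPKM values, named so by its file and not counts. The submitters' processing notes name Trimmomatic, HISAT2, featureCounts and Cufflinks without role or version. Genome build and annotation version are not given in the sources used here, so no positions are printed. Symbols came from the RefSeq table of ARS-UCD2.0, matched on accession without version (14295 of 14517 rows, 35 of the 39). No sequence table was used.

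Absolute depth is unknown, and relative depth was read from the ratio at which low values (0.001 to 0.3 FPKM) cluster, with 12.8% to 13.9% of rows within 0.03 log2 units of the main step. An exact 0 can be a failed estimate.

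Differences are on the log2(FPKM + 1) scale, which understates the change of low transcripts. The 8970 rows with a mean of at least 1 FPKM were fitted across all 4 libraries with limma 3.58.1 in R 4.3.3 (lmFit, eBayes with trend, Benjamini-Hochberg adjustment over all rows, threshold 0.05, no covariates). Simulated data of 8970 rows for this comparison gave 92.8% recovery of changes of 2 and 32.8% of changes of 1 on the log2 scale, with 5.14% of calls unchanged. The simulated rows varied independently, with no shift shared across a library, so these rates may not hold for the measured libraries. The 39 transcripts, the gene and marker lists and the role groups were chosen with earlier results of these data known. The rule for naming was to give every library's value for up to 30 transcripts with a symbol and separate groups, and to account for the rest, with up to 3 genes from each list, and further list genes were named after their values were seen. Tables were made with pandas 2.3.3, numpy 2.4.6 and, for plots, matplotlib 3.10.9 under Python 3.11.15. The results were recomputed with a pseudocount of 0.1, without the filter or with one at 5 FPKM, with 3 scalings, without microRNA rows (including NR rows without a symbol), with rows summed by symbol, with 2 other variance models, the replicate block and leaving out each library. Near-identical or overlapping genes may share reads, and strand-specific counting is not stated.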

Additional observations from a re-analysis of the deposited data

How the results depend on the processing

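The rule gave 39 transcripts, 91 with a pseudocount of 0.1 (all 39 among them) and 17 with a filter at a mean of 5 FPKM, which can only remove rows. Under the other 6 settings of filter, scaling and summation it gave 31 to 43, and leaving out one library at a time left 26 to 39 of the 39 at a difference of 1 or more. Quantile normalization shared 25 of its 32 with the 39, and median-ratio scaling and the common sum each shared 30 of 31. Reversed differences were those of C18H19orf48 with rows summed by symbol (-0.086) and without NC replicate 1 (-0.018, against 2.88 without NC replicate 2), ZC3H14 without NC replicate 1 (-0.029, against 3.27 without NC replicate 2) and PTBP2 without KDM5_KD replicate 1 (-0.024, against 2.70 without KDM5_KD replicate 2). Among list medians, prohormone processing reversed with quantile normalization (-0.025), genome activation without NC replicate 2 (0.068, and -0.098 without NC replicate 1) and the H3K4 machinery without KDM5_KD replicate 1 (0.050, and -0.12 without NC replicate 1).

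Over all rows, limma called 17 higher and 8 lower. It called 2 higher and 1 lower with no filter on low values, 11 higher with the filter at 5, 8 higher with the common sum, 6 higher with eBayes without a trend and 37 higher with robust eBayes. The share of calls that were higher was 68%, and 57.9%, 47.1%, 50% and 80.4% with the last 4 of these. With the replicate number as a block (replicate block) it called 8 higher and 4 lower, and KDM5A had an adjusted p of 0.0591. Same-numbered libraries deviated together at r = 0.229, but with 2 pairs they are taken to share only a number. Leaving out one library gave 3 to 323 higher (323 without NC replicate 1) and 3 to 17 lower, and these fits assume that the lone library of a group varies like the other group. Causes other than these constructions were not tested. Without read counts, values listed at 0 have no stated limit.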

Other observations

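The nearest tested genes on either side of the 35 transcripts with a symbol were looked up on the RefSeq assembly ARS-UCD2.0, which gives 70 neighbouring genes. Their median log2 difference was 0.10, beside 0.09 for all rows tested, and it ranged from -0.79 to 2.24. Of the 70, 5 (7.14%) had a 2-fold or greater difference upward in KDM5_KD and 0 had one downward, where 4.52% and 0.301% of all rows did, and none belonged to the 39. The 5 were CRIP1 beside CRIP2, APOE beside CLPTM1, SLC17A5 beside COL12A1, DDT beside MIR2893 and ABRACL beside REPS1.

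CRIP1, a LIM domain protein gene related to CRIP2, was at 10.6 and 2.92 FPKM in the controls and at 42.0 and 22.6 FPKM in the knockdown. APOE, which carries lipids in lipoproteins, was at 2.64 and 0.681 FPKM in the controls and at 6.15 and 6.75 FPKM in the knockdown. The 5 genes were picked after their values were seen, and no test was made on them.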
